A study of Mus musculus with 12 samples.

Results

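The genes described here are 10 transcription factors that set or hold the identity of the chondrocyte, the cell that builds cartilage: Sox9, Sox5 and Sox6 (the SOX trio), Sox8, Sox4, Sox11, Nkx3-2, Foxc1, Barx2 and Trps1. They were chosen by name, and every probe of the array with one of these symbols was taken, which gave 10 of the 34509 symbols in the table and 24 of its 46632 probes. RNA was measured on 12 Illumina bead arrays, whose probes shine brighter the more of their transcript is present. The RNA came from femoral head cartilage of 21-day-old mice, kept in culture for 3 days without an agent, with 10 ng/ml IL-1-alpha (IL-1α, an inflammatory cytokine) or with 10 µM retinoic acid (RA, the active form of vitamin A). Each of these 3 groups had 4 arrays. All mice, the untreated ones included, carried TS-4/5∆cat, the combined in-frame deletion of the catalytic domains of the aggrecanases ADAMTS-4 and ADAMTS-5, so no group is wild-type cartilage. In each group 2 arrays came from the line Donut and were batch 1, and 2 came from the line Gertrude and were batch 2, so line and batch cannot be told apart. The labels describe 4 hips per well with 24 hours in medium with 10% serum before treatment, and the study's methods describe serum-free culture and unpooled mice, so the number of mice behind an array is not settled. The methods also give fewer mice for each treatment than the table has arrays, so the 4 arrays of a group may not be 4 independent animals, and p-values measure the spread between these arrays.

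SOX9 is the factor without which mesenchymal cells do not become chondrocytes, and it binds enhancers of the genes for type II collagen, aggrecan and other cartilage matrix proteins. SOX5 and SOX6, close relatives with no activation domain of their own, bind beside it and strengthen its action there. SOX8 belongs to the same subgroup as SOX9, while SOX4 and SOX11 form, with SOX12, a subgroup best known from progenitor cells. NKX3-2 and TRPS1 are repressors that hold back later steps of chondrocyte maturation, and FOXC1 and BARX2 act in early skeletal condensations.

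Between 13786 and 14965 probes were detected per array in batch 1 and between 16732 and 19485 in batch 2, at a detection p under 0.05. Arrays of one treatment and batch correlated at r between 0.98 and 0.99 over the kept probes, and arrays of one treatment in different batches between 0.87 and 0.90. The treatments left their known marks: Cyp26a1, the enzyme that degrades RA, was detected on all 4 RA arrays and on none of the others, and Nos2, the inducible nitric oxide synthase, was detected on all 4 IL-1α arrays and on none of the others. Cartilage markers were bright on the untreated arrays, with a mean of 13.59 for Col2a1 and 13.26 for Acan on the log2 scale. All values below are log2 normalized intensities, and a change of 1 on this scale is a doubling of brightness. The levels of different probes are not comparable, so only changes of the same probe are read.

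Of the 24 probes of the 10 genes, 16 were kept because they were detected on at least 4 of the 12 arrays, and these cover 8 genes. A probe can be kept through the arrays of 1 treatment alone, so the counts that follow describe these genes and support nothing beyond that. The Foxc1 probe and both Barx2 probes were detected on 0 of 12 arrays, which is a limit of these probes at their brightness and not a measure of absence. A gene with several kept probes is counted by its brightest one, that with the highest mean over all 12 arrays. The RA arrays enter that mean, so a fall with RA can change which probe is taken. With RA, 4 genes (Sox9, Sox5, Sox8 and Trps1) fell and 1 (Sox4) rose against untreated, and Sox6, Sox11 and Nkx3-2 did not pass the test. Among probes, 10 of 16 were lower and 1 was higher at an adjusted p under 0.05 from limma, where 17.1% of all 18200 kept probes were lower and 18.2% higher. With IL-1α, 2 genes (Sox9 and Sox8) fell and 0 rose, with 5 of 16 probes lower. In that comparison 14.1% of all kept probes were lower and 15.2% higher. By limma, 0 of the 16 probes had a positive change with IL-1α at an unadjusted p under 0.05. The alternatives tried also gave 0 higher probes, except within batch 1, where 1 was higher. That probe, Sox5 ILMN_2610223, was undetected on both untreated arrays of batch 1. Between RA and IL-1α the same 4 genes were lower with RA and Sox4 was higher, by 9 and 1 of the 16 probes, against 15.8% lower and 15.2% higher over all kept probes. Of these, Sox5 lost its call under median scaling of the arrays (-0.47, limma adjusted p = 0.0909), which left 3 genes, and 3 genes were also lower when detection on all 12 arrays was required, a filter that Sox8 could not pass. The median change of the 8 genes was -0.57 with RA and -0.30 with IL-1α, where the median of all kept probes was 0.02 in both. Both comparisons use the same untreated arrays. Median scaling of the arrays, used instead of quantile normalization, moved the median of all kept probes for RA against untreated from 0.02 to 0.14, and moved the share of lower probes among those called from 48.4% to 34.4% for RA against untreated and from 51% to 34.4% for RA against IL-1α. No called change of a regulator probe turned its direction under it. In bulk RNA of this kind, fewer cells of a type and less RNA per cell cannot be told apart.

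**Figure D1:**
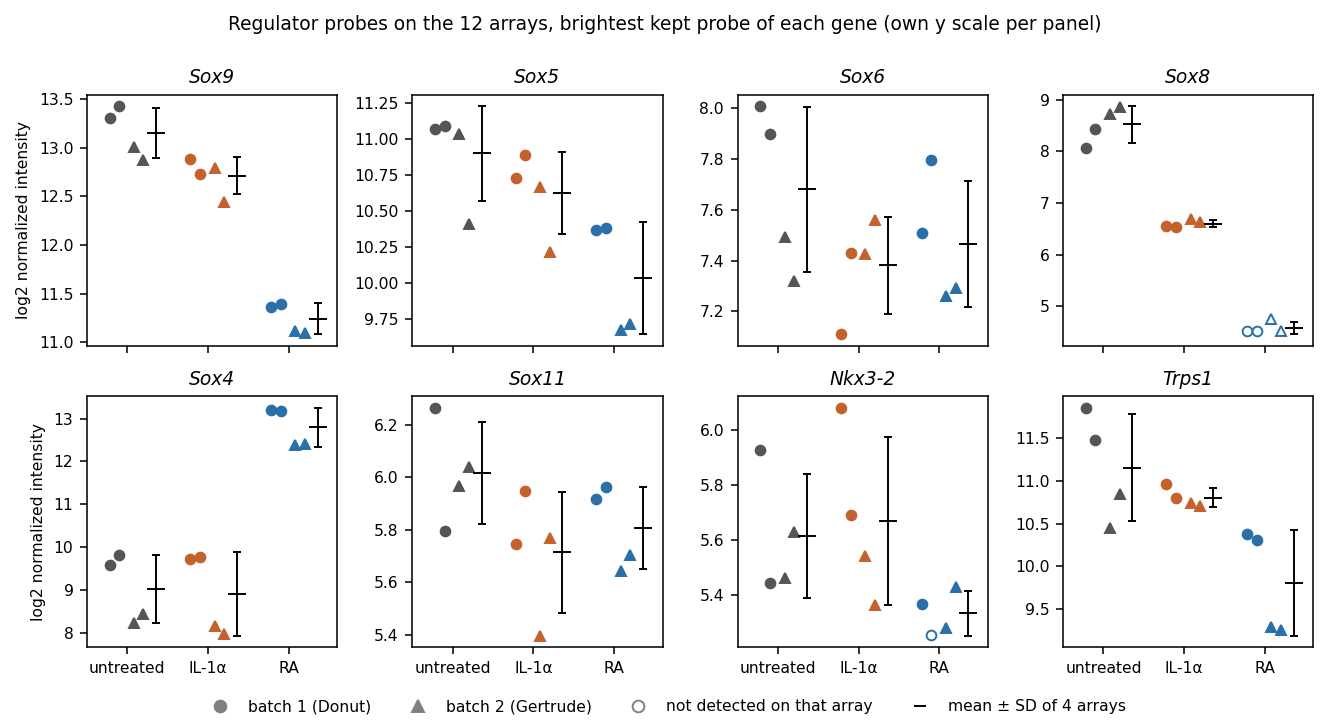
Log2 normalized intensity (y axis, own scale in each panel) of the brightest kept probe of 8 regulators on the 12 arrays, by treatment. Circles are batch 1 and triangles batch 2, open symbols mark arrays on which the probe was not detected, and black bars are the mean ± SD of 4 arrays. Sox9 sits between 11.09 and 11.39 with RA, below all untreated and IL-1α arrays, while Sox4 sits between 12.38 and 13.20 with RA, above all others.

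RA lowered Sox9 strongly and IL-1α lowered it slightly. Its single probe read 13.31 and 13.43 on the untreated arrays of batch 1 and 13.01 and 12.88 on those of batch 2. With IL-1α it read 12.88, 12.73, 12.79 and 12.44 in the same order. With RA it read 11.36, 11.39, 11.11 and 11.09. The RA arrays lay below every untreated and every IL-1α array, and the IL-1α arrays overlapped the untreated ones only at 12.88. RA lowered Sox9 by 3.77-fold, a log2 change of -1.91 (SE 0.12, limma adjusted p = 5.38e-08), with -1.99 in batch 1 and -1.84 in batch 2. IL-1α lowered it by 1.36-fold, a log2 change of -0.44 (SE 0.12, limma adjusted p = 0.0120). This smaller call did not hold when arrays were scaled to one median (adjusted p = 0.0808), with no batch term (adjusted p = 0.175), without the second IL-1α array of batch 1 (adjusted p = 0.0598) or without the second untreated array of batch 1 (adjusted p = 0.0565), and the two-sided exact permutation test of 4 arrays against 4 gave p = 0.0571. The call was also lost on the arrays of batch 2 alone (-0.33, limma adjusted p = 0.194). Between the treatments, Sox9 was 2.77-fold lower with RA than with IL-1α (log2 change -1.47, limma adjusted p = 5.93e-07). The order of levels was therefore untreated, IL-1α and RA, with the first 2 close enough to overlap. The highest value on any array after normalization was 14.24, so the untreated level of Sox9 lay near the top of the scale.

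Sox5 has 5 probes on the array, 4 of them kept. The brightest, ILMN_2631143, read 11.07, 11.09, 11.04 and 10.41 on the untreated arrays, 10.74, 10.89, 10.67 and 10.22 with IL-1α, and 10.37, 10.38, 9.68 and 9.72 with RA. The untreated and RA arrays did not overlap, though the last untreated array, at 10.41, lay just above the highest RA array. With RA it fell by 0.87 on the log2 scale (SE 0.13, 1.82-fold, limma adjusted p = 0.000229), and the change with IL-1α was -0.28 (adjusted p = 0.140, 95% interval -0.56 to 0.01). A further pair of Sox5 probes gave almost the same RA change, -0.88 for ILMN_1244213 and -0.95 for ILMN_2580904, both past the test. At both, the RA and untreated arrays overlapped (two-sided exact permutation test of 4 arrays against 4, p = 0.171 and 0.229). Both of these RA calls were lost with no replicate block and no batch term. The fourth, ILMN_2610223, was undetected on 5 of the 6 arrays of batch 1 and gave -0.17 (adjusted p = 0.352). ILMN_2580904 alone among them passed the test with IL-1α, at -0.62 (adjusted p = 0.0275), and it lost that call when either IL-1α array of batch 1 or any of the 4 untreated arrays was left out (adjusted p between 0.0501 and 0.118), and under 3 other settings. The IL-1α change of that probe was -0.99 in batch 1 and -0.25 in batch 2, and the latter did not pass the test on the arrays of batch 2 alone (limma adjusted p = 0.309).

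The probes of Sox6 did not move together. The brightest kept probe, ILMN_2702323, read 8.01, 7.90, 7.50 and 7.32 without treatment, 7.11, 7.43, 7.43 and 7.56 with IL-1α, and 7.51, 7.80, 7.26 and 7.29 with RA. The 3 groups overlapped, and the RA change was -0.22 (SE 0.16, limma adjusted p = 0.336, 95% interval -0.57 to 0.14). ILMN_1252898 read 8.52, 8.17, 7.36 and 7.59 without treatment, 7.15, 7.38, 7.31 and 7.29 with IL-1α, and 6.48, 6.52, 5.95 and 5.96 with RA. Every RA array of this probe lay below every other array, and RA lowered it by 3.21-fold (log2 change -1.68, SE 0.18, limma adjusted p = 8.02e-06). ILMN_1224198 was lower with RA by 2.71-fold (log2 change -1.44, SE 0.25, adjusted p = 0.000511) and was undetected on both RA arrays of batch 1. On the same arrays, ILMN_1252898 minus ILMN_2702323 lay between -0.14 and 0.52 without treatment and between -1.33 and -1.03 with RA, a shift of -1.47 (two-sided exact permutation test of 4 arrays against 4, p = 0.0286, the smallest that design allows). For ILMN_1224198 minus ILMN_2702323 the shift was -1.23 (exact permutation p = 0.0286). The probes of this gene therefore changed unequally with RA, and the count above, which takes the brightest probe, lists Sox6 as not called. That choice depends on the treated arrays. On the untreated arrays ILMN_1252898 had the higher mean, 7.91 against 7.68 for ILMN_2702323. Counted by ILMN_1252898, Sox6 would be lower with RA. RefSeq gives Sox6 6 windows at separate starts in GRCm38.p6. The files do not place the probes on transcripts, so which transcript each probe reads was not tested. With IL-1α, ILMN_1252898 fell by 0.63 (adjusted p = 0.0175), a call lost when either IL-1α or either untreated array of batch 1 was left out (adjusted p between 0.0592 and 0.0804). The call was also lost with no filter (limma adjusted p = 0.0865) and with no replicate block and no batch term (adjusted p = 0.196). On the arrays of batch 2 alone the change was -0.18 (adjusted p = 0.474).

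**Figure D2:**
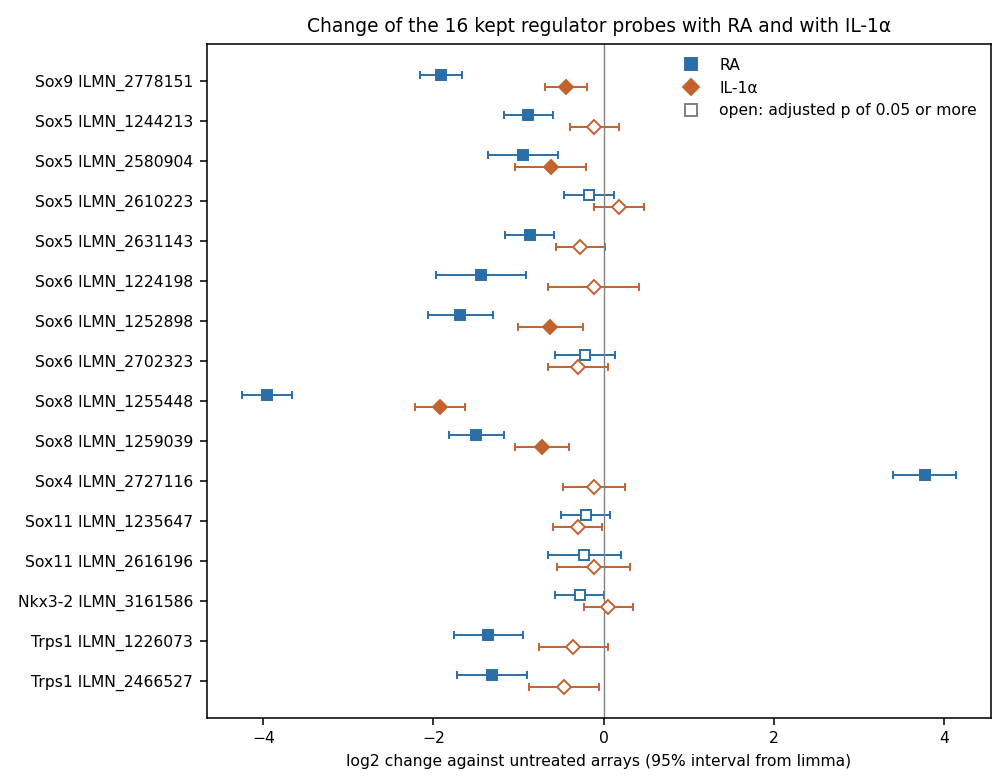
Log2 change against untreated (x axis, bars are 95% intervals from limma) of the 16 kept regulator probes, named by gene and probe, with RA in squares and IL-1α in diamonds. Filled symbols passed an adjusted p under 0.05. The Sox8 probe ILMN_1255448 lies farthest to the left at -3.95, Sox4 lies far to the right at 3.77, and the Sox6 probes lie apart at -1.68, -1.44 and -0.22.

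Sox8 had the largest fall of the regulators at its brightest probe, but not at its second one. Its brightest probe, ILMN_1255448, read 8.07, 8.45, 8.73 and 8.86 without treatment. It read 6.56, 6.53, 6.68 and 6.63 with IL-1α. With RA it was undetected on all 4 arrays, at 4.51, 4.51, 4.75 and 4.52, where the lowest detected signals of an array lie between 4.86 and 5.48. The 3 groups were fully apart. RA arrays were at least 10.1-fold lower than untreated ones and at least 2.66-fold lower than IL-1α ones, as bounds set by the lowest detected signal (limma adjusted p = 5.18e-10 and 1.32e-07). IL-1α lowered Sox8 by 3.79-fold at this probe (log2 change -1.92, SE 0.14, limma adjusted p = 5.62e-07). At the second probe the IL-1α and untreated arrays overlapped (two-sided exact permutation test of 4 arrays against 4, p = 0.114). The second Sox8 probe, ILMN_1259039, fell less, with changes of -1.49 with RA and -0.73 with IL-1α (adjusted p = 4.54e-06 and 0.0027). Its RA fall was smaller than that of Sox9 (-1.91). On the same arrays, ILMN_1259039 minus ILMN_1255448 shifted by 2.46 with RA against untreated (two-sided exact permutation test of 4 arrays against 4, p = 0.0286). With IL-1α the shift was 1.20 (exact permutation p = 0.0857). The IL-1α call of ILMN_1259039 was lost with no replicate block and no batch term (limma adjusted p = 0.195) and on the arrays of batch 2 alone (adjusted p = 0.0940). Its readings with RA, 5.46, 5.44, 4.90 and 5.08, lie close to the lowest detected signals, and that of 4.90 was undetected. Background therefore limits the RA fall that either Sox8 probe can show.

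Sox4 moved the other way. Its single probe read 9.58, 9.82, 8.23 and 8.44 on the untreated arrays and 9.73, 9.77, 8.16 and 7.98 with IL-1α. With RA it read 13.20, 13.18, 12.38 and 12.42. In the intensities as deposited, the 4 untreated arrays lay between 394 and 569.4 and the 4 RA arrays between 6478.5 and 8426.2. RA raised Sox4 by 13.7-fold (log2 change 3.77, SE 0.17, limma adjusted p = 3.63e-09), with changes of 3.49 in batch 1 and 4.06 in batch 2. The IL-1α and untreated arrays overlapped, and the difference was -0.11 (adjusted p = 0.654, 95% interval -0.48 to 0.25). Sox11, from the same subgroup, did not pass the test with RA. Of its 4 probes 2 were kept. ILMN_1235647 read 6.27, 5.80, 5.97 and 6.04 without treatment, 5.74, 5.95, 5.40 and 5.77 with IL-1α, and 5.92, 5.96, 5.64 and 5.70 with RA. Its RA change was -0.21 (adjusted p = 0.251, 95% interval -0.50 to 0.08), and that of ILMN_2616196 was -0.23 (adjusted p = 0.416). Within the batches the RA change of ILMN_2616196 was 0.13 in batch 1 and -0.59 in batch 2, and the latter passed the test on the arrays of batch 2 alone (limma adjusted p = 0.0298). With IL-1α the change of ILMN_1235647 was -0.30 (adjusted p = 0.107), and it passed the test only without the second untreated array of batch 1 (adjusted p = 0.0282). Sox12, the third gene of the subgroup, is no member of the set and fell with both treatments, with changes of -1.12 with RA and -0.94 with IL-1α (limma adjusted p = 0.000143 and 0.000950).

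The stretch just before the start of Sox4 is shown with those of Sox11, its sister gene that did not pass the test, and of Sox8, the gene with the largest fall at its brightest probe. Each sequence is the 250 bases upstream of the start from RefSeq, build GRCm38.p6, read 5′ to 3′ on the minus strand: chr13:28953700-28953949 for Sox4, chr12:27342719-27342968 for Sox11 and chr17:25570687-25570936 for Sox8. Capitals mark matches on either strand to AGGTCA, the hexamer that nuclear receptors such as those for RA recognise, to ACAAT, a core bound by SOX proteins, to CCAAT, to TATAAA and to GGGCGG, and no 2 marked matches overlap in these windows.
Sox4: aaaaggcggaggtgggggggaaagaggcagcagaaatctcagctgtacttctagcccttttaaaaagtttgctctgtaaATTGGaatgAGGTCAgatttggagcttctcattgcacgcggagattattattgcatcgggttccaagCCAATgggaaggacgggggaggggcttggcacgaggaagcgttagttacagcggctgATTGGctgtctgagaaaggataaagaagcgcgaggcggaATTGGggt
Sox11: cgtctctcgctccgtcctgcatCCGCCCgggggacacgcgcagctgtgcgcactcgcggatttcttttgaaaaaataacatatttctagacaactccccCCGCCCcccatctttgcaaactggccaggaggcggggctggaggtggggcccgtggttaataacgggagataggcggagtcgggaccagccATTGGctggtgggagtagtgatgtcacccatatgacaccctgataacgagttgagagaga
Sox8: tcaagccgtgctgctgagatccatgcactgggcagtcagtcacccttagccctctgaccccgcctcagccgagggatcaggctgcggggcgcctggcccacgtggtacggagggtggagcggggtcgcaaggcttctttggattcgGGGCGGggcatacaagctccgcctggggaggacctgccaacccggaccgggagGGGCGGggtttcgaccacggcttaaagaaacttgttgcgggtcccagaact
The Sox4 window holds 1 AGGTCA, which begins 162 bases before the start, and 4 matches to CCAAT. Sox11 holds 1 match to CCAAT and 2 to GGGCGG, and Sox8 holds 2 to GGGCGG. Neither holds AGGTCA, and no window of these 3 holds ACAAT or TATAAA. Sox6, whose probes changed unequally with RA, also has windows with 1 match to AGGTCA, at chr7:115846141-115846390 and chr7:116031048-116031297. The match is therefore not confined to the gene that rose. Over 32851 promoter windows of the same length, 14% hold AGGTCA, 27.7% ACAAT, 33.8% CCAAT, 12.4% TATAAA and 32.7% GGGCGG. The repeat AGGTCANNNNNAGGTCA, the spacing that RA receptors bind in their best known target genes, was in 0.00913% of all windows and in none of the 12 windows found for 7 of the 10 genes. RA response elements often lie far from the start, so a window without these letters says nothing about the receptor. Sox9, Barx2 and Trps1 had no window in the table.

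Trps1, the GATA-type repressor, has 2 probes, both kept. ILMN_1226073 read 11.86, 11.48, 10.45 and 10.85 without treatment, 10.96, 10.81, 10.74 and 10.70 with IL-1α, and 10.38, 10.30, 9.29 and 9.25 with RA. All 4 RA arrays were below all untreated arrays, although the lowest untreated array (10.45) and the highest RA array (10.38), which are of different batches, were close. RA lowered it by 2.56-fold (log2 change -1.35, SE 0.19, limma adjusted p = 8.74e-05), and the second probe, ILMN_2466527, gave -1.32 (adjusted p = 0.000134). At the second probe, unlike the first, the RA and untreated arrays overlapped (two-sided exact permutation test of 4 arrays against 4, p = 0.0571). Against IL-1α the RA changes of these probes were 2-fold and 1.80-fold falls (adjusted p = 0.00108 and 0.00398). With IL-1α neither probe passed the test, at -0.35 and -0.47 (adjusted p = 0.172 and 0.0828). On the arrays of batch 1 alone both passed it, at -0.79 and -0.82 (limma adjusted p = 0.00398 and 0.00613), and in batch 2 the values were 0.08 and -0.11 (adjusted p = 0.799 and 0.77). Both also passed it when the first IL-1α array of batch 2 was left out, at -0.54 and -0.61 (adjusted p = 0.0408 and 0.0384), and the second probe also did without the first untreated array of batch 2 (adjusted p = 0.0181).

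Nkx3-2, a homeobox repressor, was dim. Its probe read 5.93, 5.44, 5.46 and 5.63 without treatment, 6.08, 5.69, 5.54 and 5.36 with IL-1α, and 5.37, 5.25, 5.28 and 5.43 with RA, and it was undetected on the second RA array of batch 1. The RA arrays lay just below the untreated ones with no overlap (two-sided exact permutation test, p = 0.0286), but the change of -0.28 (SE 0.13, 95% interval -0.57 to 0.01) missed the threshold over all probes (limma adjusted p = 0.122). Against IL-1α the RA change was -0.34 (adjusted p = 0.0740) and passed the test without the second IL-1α array of batch 2 (adjusted p = 0.0226). A value of -0.57 against untreated is inside that interval, so the data do not show that Nkx3-2 stayed level.

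Across the 12 arrays, with the mean of each batch and replicate number removed, the representative probes of Sox9, Sox5, Sox8 and Trps1 followed each other, with Pearson's r between 0.89 and 0.95, and Sox4 ran against them, with r between -0.96 and -0.85. The Sox6 probe that did not pass the test correlated with Sox9 at only 0.28. These are descriptions over 12 arrays that share 3 treatments, and no test was made. By the same measure over all kept probes, the genes most like Sox9 were Timp3 (r = 0.998), an inhibitor of matrix metalloproteinases, Serpina3n (0.996), a secreted protease inhibitor, Tcea3 (0.993), Slc38a3 (0.993), an amino acid carrier, and Pycr1 (0.992), an enzyme of proline synthesis. The changes of Timp3 were -1.43 with RA and -0.36 with IL-1α, and those of Serpina3n were -3.17 and -0.63. The genes most like Sox5 were Adk (0.986), 9130005N14Rik (0.976), Gstz1 (0.975), Copz2 (0.974) and Mtrf1 (0.973). For the brightest Sox6 probe they were Thrap3 (0.969), D0Kist3 (0.965), Ddx49 (0.964), 4930547E08Rik (0.955) and A830096H11Rik (0.949), whose RA changes lay between -0.28 and -0.09.

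Most of the cartilage matrix genes known as targets of SOX9 fell in both treatments. Of 19 listed genes, 17 were kept. With RA 16 of them fell, 0 rose and 1 (Col9a3, detected on 6 arrays) did not pass the test, with a median change of -2.44 (0.02 over all kept probes). With IL-1α 12 fell and 0 rose, with a median of -0.99, and between RA and IL-1α 15 were lower with RA. Over all kept probes 17.1% were lower with RA, 14.1% with IL-1α and 15.8% with RA against IL-1α. The largest RA falls among the genes detected on all 12 arrays were those of Matn1 (matrilin-1), with a log2 change of -5.01, and Acan (aggrecan), at -4.22. Col27a1, at -4.17, and Hapln1 (link protein), at -3.33, were detected on 2 of the 4 RA arrays, so these values rest partly on readings below background. Ucma was undetected on all 4 RA arrays and has no place in that order. With IL-1α the largest were those of Matn1 at -1.81, Acan at -1.56, Mia at -1.28 and Hapln1 at -1.25. Col2a1 fell by 1.42 with RA, and its IL-1α value was -0.20 (adjusted p = 0.468), Comp fell by 2.25, with -0.29 for IL-1α (adjusted p = 0.0784), and Snorc fell by 1.05, with -0.05 for IL-1α (adjusted p = 0.755). For these 3 the values with RA were also lower than with IL-1α (adjusted p = 0.000260, 5.22e-08 and 1.02e-05), which is the test of that difference. Fgfr3 fell by 1.06 with RA and by 1.04 with IL-1α, with a difference of -0.01 between the treatments (adjusted p = 0.953). The summed intensity of the 17 genes on the normalized linear scale lay between 101000 and 118000 on untreated arrays, between 59100 and 78300 with IL-1α and between 23200 and 29200 with RA, with no overlap.

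**Figure D3:**
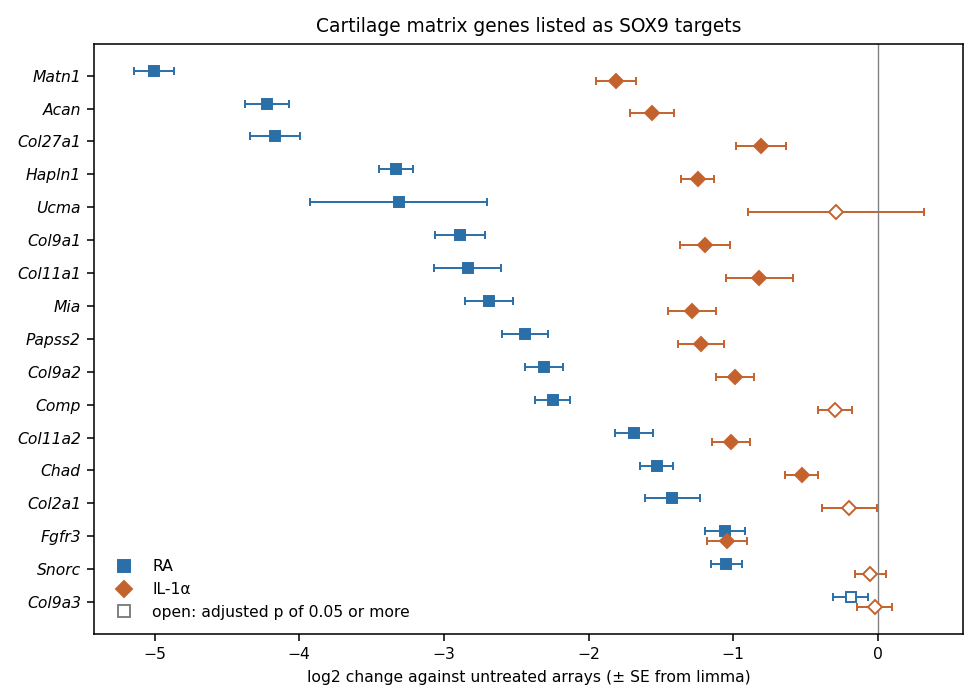
Log2 change against untreated (x axis, bars are ± SE from limma) of the 17 kept cartilage matrix genes listed as SOX9 targets, with RA in squares and IL-1α in diamonds, ordered by the RA change. Filled symbols passed an adjusted p under 0.05. The RA values run from -5.01 for Matn1 to -0.19 for Col9a3, and the IL-1α values from -1.81 to -0.02. Col9a3, Col27a1 and Hapln1 were detected on 2 of the 4 RA arrays, Col11a1 on 3 and Ucma on 0, so their RA positions are limited by background.

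Other regulators of the chondrocyte lineage moved in both directions. Of 34 listed, 24 were kept, and with RA 6 fell and 8 rose, with a median change of -0.09. With IL-1α 8 fell and 3 rose, with a median of -0.17. Over all kept probes 17.1% were lower and 18.2% higher with RA, and 14.1% were lower and 15.2% higher with IL-1α. The rises with IL-1α were thus no more frequent in this list than over all kept probes. The largest RA changes were falls of Wwp2 (-3.27), the ligase gene that hosts a cartilage microRNA, of Snai2 (-2.58), a zinc finger repressor, and of Foxa3 (-2.52), a forkhead factor of hypertrophic chondrocytes, and a rise of Runx1 (1.69). With IL-1α they were falls of Snai2 (-1.50), Mef2c (-1.23) and Shox2 (-1.14), and a rise of Runx1 (1.13). Zfp219, a partner of SOX9, rose by 0.86 with RA and by 0.44 with IL-1α. Of the 15 other Sox genes on the array 6 were kept. Beside Sox12, Sox17 and Sox18, which are known from endothelial cells, rose with RA by 0.80 and 0.46 and fell with IL-1α by 0.61 and 0.82 (limma adjusted p = 0.0106, 0.0214, 0.0481 and 0.000869). Sox17 was detected on only 2 untreated arrays and 1 IL-1α array, so its values rest partly on readings below background.

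Genes listed as markers of other cells that the explant could hold moved too, and which cells gave their signal was not tested. Over all kept probes 17.1% were lower and 18.2% higher with RA, and 14.1% were lower and 15.2% higher with IL-1α. All 4 kept genes of the osteoblast list (Sp7, Ibsp, Phex and Alpl) fell with RA and with IL-1α. Their summed intensity was between 8320 and 10500 untreated, between 1860 and 3590 with IL-1α and between 2230 and 3150 with RA. Of 8 kept tendon and fibrous tissue markers, 8 fell with RA and 7 with IL-1α (sums of 2860 to 4980, 1560 to 1780 and 1530 to 3060 in the same order). Of 8 kept macrophage and osteoclast markers 5 rose with RA and 0 fell, and 3 rose and 3 fell with IL-1α (8310 to 10800, 10400 to 12100 and 11200 to 14800). Endothelial markers, 6 kept, split 1 down and 1 up with RA and 3 down with IL-1α (1950 to 2480, 978 to 1340 and 2150 to 2500). Blood and granulocyte markers, 8 kept, fell in 3 cases with RA and in 0 with IL-1α (34100 to 37800, 39400 to 48000 and 23700 to 44600). Their sum with RA went opposite ways in the batches. In batch 1 it was lower, at 24900 and 23700 against 34100 and 34800 untreated. In batch 2 it was higher, at 43400 and 44600 against 37800 and 36000. Only 2 muscle and 2 adipocyte markers were kept, and all fell with both treatments save Acta1 with RA (muscle 135 to 301, 79.7 to 118 and 80.1 to 126, adipocyte 935 to 1410, 209 to 477 and 261 to 326). Ptprc, Dmp1, Sost, Postn, Ckm and Plin1 were among the listed markers whose brightest probe was undetected on all 12 arrays. That is a limit of these probes and not a measure of absence. Others of the same lists, such as Lyz2, Cd68, Ctsk, Ibsp and Col1a1, were detected on all 12 arrays. The part of these cells in the changes of the regulators was not tested.

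The levels of the regulators also differed between the batches, as 76.3% of all kept probes did. Batch 2 minus batch 1 was -1.28 for Sox4 (limma adjusted p = 2.16e-07) and -0.30 for Sox9 (adjusted p = 0.00855). Probes of one gene went opposite ways here. For Sox5, batch 2 minus batch 1 was 1.06, -1.52, 1.76 and -0.47 for ILMN_1244213, ILMN_2580904, ILMN_2610223 and ILMN_2631143, and for Trps1 it was -0.75 for ILMN_1226073 and 1.36 for ILMN_2466527, each past the test. A difference that turns between probes of a gene cannot be read as a difference of the gene's amount between the lines. The RA changes within batches 1 and 2 were -1.33 and -1.38 at the first Trps1 probe and -1.31 and -1.33 at the second.

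**Figure D4:**
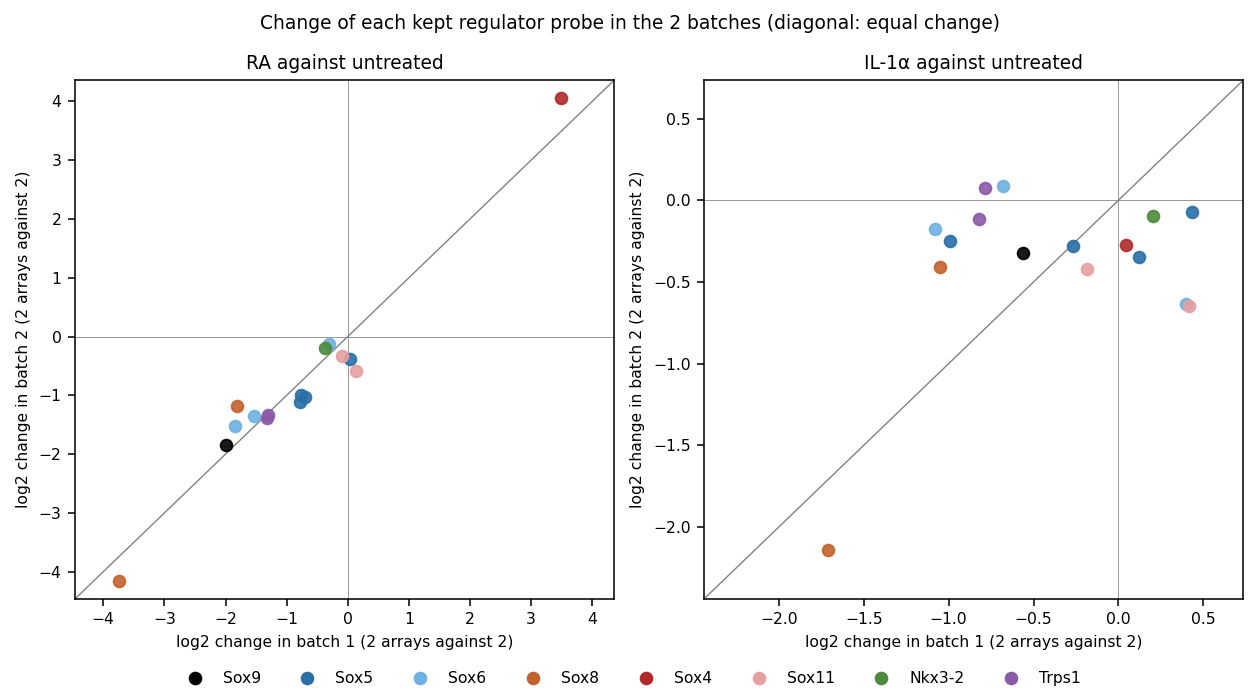
Log2 change of each of the 16 kept regulator probes in batch 1 (x axis) and in batch 2 (y axis), each from 2 arrays against 2, for RA on the left and IL-1α on the right. Points are coloured by gene and the diagonal marks equal change. With RA the points follow the diagonal from the Sox8 probe at -3.74 and -4.16 to Sox4 at 3.49 and 4.06, while with IL-1α that Sox8 probe lies at -1.71 and -2.14, the Sox6 probe ILMN_1252898 at -1.08 and -0.18 and the Sox11 probe ILMN_2616196 at 0.41 and -0.65.

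The change with RA against untreated differed between the batches for 0 of the 16 probes by limma's test of that difference, where 2.86% of all kept probes did. For IL-1α against untreated it differed for 2 probes, Sox6 ILMN_1252898 and Sox11 ILMN_2616196, against 4.82% of all kept probes. For RA against IL-1α it differed for 4, of Sox5, Sox6, Sox4 and Trps1, against 8.76%. By limma on the 6 arrays of batch 1 alone, IL-1α lowered 8 of the 16 probes and raised 1, where 18.1% of all kept probes were lower and 18.9% higher. On the 6 arrays of batch 2 alone it lowered 2 and raised 0, where 9.05% of all kept probes were lower and 7.29% higher. The probe raised in batch 1 was Sox5 ILMN_2610223 (0.43, limma adjusted p = 0.0451). It read 4.87 and 5.14 on the untreated arrays of that batch, undetected on both. With IL-1α it read 5.43, undetected, and 5.45, so this rise rests mostly on readings below background. The Sox9 change with IL-1α was -0.56 in batch 1 and -0.33 in batch 2, a difference of 0.24 that did not pass the test (adjusted p = 0.571). Sox8 ILMN_1255448 passed the test with IL-1α in both, at -1.71 and -2.14.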

How the data were processed

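Illumina bead arrays measured RNA of TS-4/5∆cat femoral head cartilage in culture, 12 arrays in 3 treatments and 2 batches. The authors deposited probe intensities without background subtraction or normalization, with a detection score for each probe, and 1 minus that score was used as the detection p. The submitters' notes name limma. How bead signals were summarised is not given in the sources used here.

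In R 4.3.3 with limma 3.58.1, neqc estimated background from the detection p, applied quantile normalization and an offset of 16, and took log2. A probe was kept if at least 4 of 12 arrays gave it a detection p under 0.05, which held for 18200 of 46632. All 12 arrays entered lmFit and eBayes with a treatment term and a 4-level factor of batch by replicate number (replicate block), as the study's methods describe, and p-values were adjusted by Benjamini-Hochberg over all kept probes at 0.05. Models of treatment by batch (6 residual degrees of freedom) and of treatment and batch compared the batches. Single probes had a two-sided exact permutation test of 4 arrays against 4, which cannot go below p = 0.0286. A probe undetected on every array of a group has only a bound there, in which each array of the dimmer group takes its lowest detected signal, or the probe's value where that is higher. The number of arrays limits precision.

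Replicate numbers do not clearly pair the arrays: deviations of same-numbered arrays correlated between 0.00 and 0.06 in batch 1 and at 0.18, -0.11 and 0.39 in batch 2.

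The genes and lists were chosen with earlier results of these data known. Genes outside the set are named as the up to 4 with the largest change in each list, and a few beside them after their values were seen. A gene is given by its kept probe of highest mean intensity. Symbols are those of the array. Promoter sequences are RefSeq's, GRCm38.p6. Alternatives concerned background, normalization, offset, filter, block, batch, array weights and left-out arrays. The functions were tested on simulated data. No column of values was left without a sample (0 columns).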

Additional observations from a re-analysis of the deposited data

Results flagged for a closer look

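In groups of 4 arrays, 1 array stood apart from the others in 2 of the 48 groups examined, by Dixon's test at its 95% critical value, which flags some groups by chance, and each group spans both batches. Sox5 ILMN_2631143 read 10.41 on the second untreated array of batch 2, below the other 3 untreated arrays. Sox8 ILMN_1255448 read 4.75 on the first RA array of batch 2, above the other RA arrays, but it was undetected on all 4.

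A treatment effect differed between the batches, as batch 2 minus batch 1 by limma's test of that difference, for 6 of the regulator changes. With IL-1α against untreated the difference was 0.90 for Sox6 ILMN_1252898 (-1.08 in batch 1 and -0.18 in batch 2, adjusted p = 0.0322) and -1.06 for Sox11 ILMN_2616196 (0.41 and -0.65, adjusted p = 0.0244). For RA against IL-1α it was -1.07 for Sox5 ILMN_2580904 (0.21 and -0.86, adjusted p = 0.00812), 1.21 for Sox6 ILMN_1224198 (-1.93 and -0.72, adjusted p = 0.0459), 0.89 for Sox4 (3.44 and 4.33, adjusted p = 0.0154) and -0.92 for Trps1 ILMN_1226073 (-0.54 and -1.46, adjusted p = 0.0272). Each batch is also a mouse line, so which of them the differences follow cannot be told apart.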

How the results depend on the processing

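No treatment change or batch difference of a kept regulator probe turned its direction while called under the alternatives run. Of the treatment changes, 557 kept their side of the threshold over the 12 left-out arrays, 7 gained a call and 12 lost one. Over the other settings fitted to all 12 arrays 486 kept it, 1 gained and 17 lost a call. In the fits of 1 batch alone 83 kept it, 8 gained and 5 lost a call. Fits of the whole model called 6436, 5334 and 5656 probes for RA against untreated, IL-1α against untreated and RA against IL-1α, and 2215, 1327 and 1984 with no replicate block and no batch term.

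The counts of regulators for RA against untreated stayed within 1.5 times, apart from the batch differences. Those for IL-1α against untreated and for RA against IL-1α did not. With no replicate block but a batch term, the counts of regulators stayed at 4 genes lower and 1 higher with RA and 2 lower with IL-1α, so a paired or unpaired fit changed no count. With no replicate block and no batch term, 1 gene and 1 probe were lower with IL-1α, and 2 genes and 4 probes were lower with RA than with IL-1α. Without the batch term Sox5 ILMN_1244213 and ILMN_2580904 and Trps1 ILMN_2466527 also lost their RA call against untreated (adjusted p = 0.236, 0.426 and 0.157). With IL-1α, 1 gene was lower under median scaling, 3 probes with no filter, and 1 gene and 3 probes when detection on all 12 arrays was required. Within batch 1, 4 genes and 8 probes were lower with IL-1α and 1 probe was higher, where 6734 of all kept probes were called, and within batch 2, 1 gene and 2 probes were lower, where 2973 were called. Leaving out single arrays gave 1 to 3 genes and 2 to 7 probes lower with IL-1α, the lowest without the second IL-1α array of batch 1. The probes whose effect differed between batches numbered 5 for IL-1α without background correction, and 1 for RA against untreated and 1 for RA against IL-1α under median scaling. Over left-out arrays they ranged from 0 to 4 for IL-1α, with 0 without the first IL-1α array of batch 1, the second IL-1α array of batch 2 or the first untreated array of batch 1, and from 1 to 5 for RA against IL-1α. Of the calls of single batch differences, 35 were lost and 6 gained over left-out arrays, so these are the least stable values. The causes were not tested. Probes near the lowest detected signal, which include those of Nkx3-2 and Sox11, limit what could be seen of dim genes.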
